A study of Rattus norvegicus with 6 samples.

Results

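A set of 10 genes that mark T cells and natural killer cells were followed in the rat heart. The genes were Cd2, Cd3d, Cd3e, Cd3g, Cd8a, Nkg7, Klrd1, Gzmb, Prf1 and Tbx21, and each was found by its symbol among the 32883 lines of the expression table. The genes were chosen with earlier results of the same libraries known, so the counts of them given here are a description. Myocardial RNA was sequenced from 3 diet-induced obesity-prone (OP) rats kept on a high-fat diet and from 3 obesity-resistant (OR) rats kept on standard chow. Both lines have a Sprague Dawley background and were bred from selected obesity-prone or obesity-resistant parents, and all 6 rats stayed on their diet for 12 months from a few weeks of age. The study compared them to ask how metabolic syndrome alters the myocardium when the heart fails although it still ejects normally. Each line was fed a single diet, so line and diet cannot be told apart in any difference between OP and OR hearts.

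T cells recognise antigen through a receptor whose signal is carried by the CD3 chains, and cytotoxic T cells add the coreceptor CD8. Natural killer cells lack this receptor and read the surface of other cells through families of activating and inhibitory receptors, many of them C-type lectins such as CD94. Both cell types kill by releasing granules that hold perforin and granzymes, and both turn on this programme under transcription factors of the T-box family. In the healthy heart they are sparse compared with myocytes, endothelial cells, fibroblasts and macrophages. In rats CD8 alpha and CD2 are also carried by natural killer cells, so these genes do not mark T cells alone.

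Each library held 10838184 to 12831577 reads assigned to genes. Levels are given in CPM, that is, reads scaled to the size of the library (the deposited values divided by 20), and a count of 3 reads corresponded to 0.234 to 0.277 CPM. Libraries of the same group differed by a chi-square of 6.04 to 6.73 per gene (1 for counting noise alone), except that pairs with OP replicate 2 differed by 23.7 and 26.0. Pairs of an OP and an OR heart differed less than that, by 13.4 to 18.3, where OP replicate 2 was not in the pair. OP replicate 2 therefore stood apart from the other OP hearts, and it also had the lowest OP level of 6 of the 10 genes. The summed level of 8 cardiomyocyte markers was 37200 to 39680 CPM in OP and 37990 to 41100 CPM in OR hearts, and the label of heart tissue held. Nothing in the labels says whether the rats shared litters, cages or days of extraction, so p-values measure only the spread between these rats.

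All 10 genes were scarce. Of these, 8 reached 1 CPM in at least 3 libraries and were tested with limma over 13445 genes, with mean levels of a few CPM. Tbx21, the T-box factor T-bet of type 1 lymphocytes and natural killer cells, was the single gene that passed an adjusted p of 0.05, and it was lower in OP hearts. This is 1 of 8 tested genes (12.5%) beside 3.39% of all genes tested, of which 1.9% were lower and 1.49% higher in OP. Under limma's voom with weights on recovered reads 0 of the 8 passed. An unadjusted p under 0.05 was found for 4 of the 8, all with lower values in OP hearts, beside 11.9% of all genes tested in that direction. In these 4 genes, Tbx21, Klrd1, Prf1 and Cd8a, every OP heart lay below every OR heart, a pattern found in 17.7% of all genes tested. Among the 2586 tested genes whose mean level lay in the range of the members, this share was 17.3%, 2.4% were called and 1.7% were called lower. In the other 6 genes the groups overlapped, and in 0 of 10 did every OP heart lie above every OR heart. The median log2 fold change (OP over OR) of the 8 tested genes was -0.54, beside 0.00 for all genes tested.

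**Figure D1:**
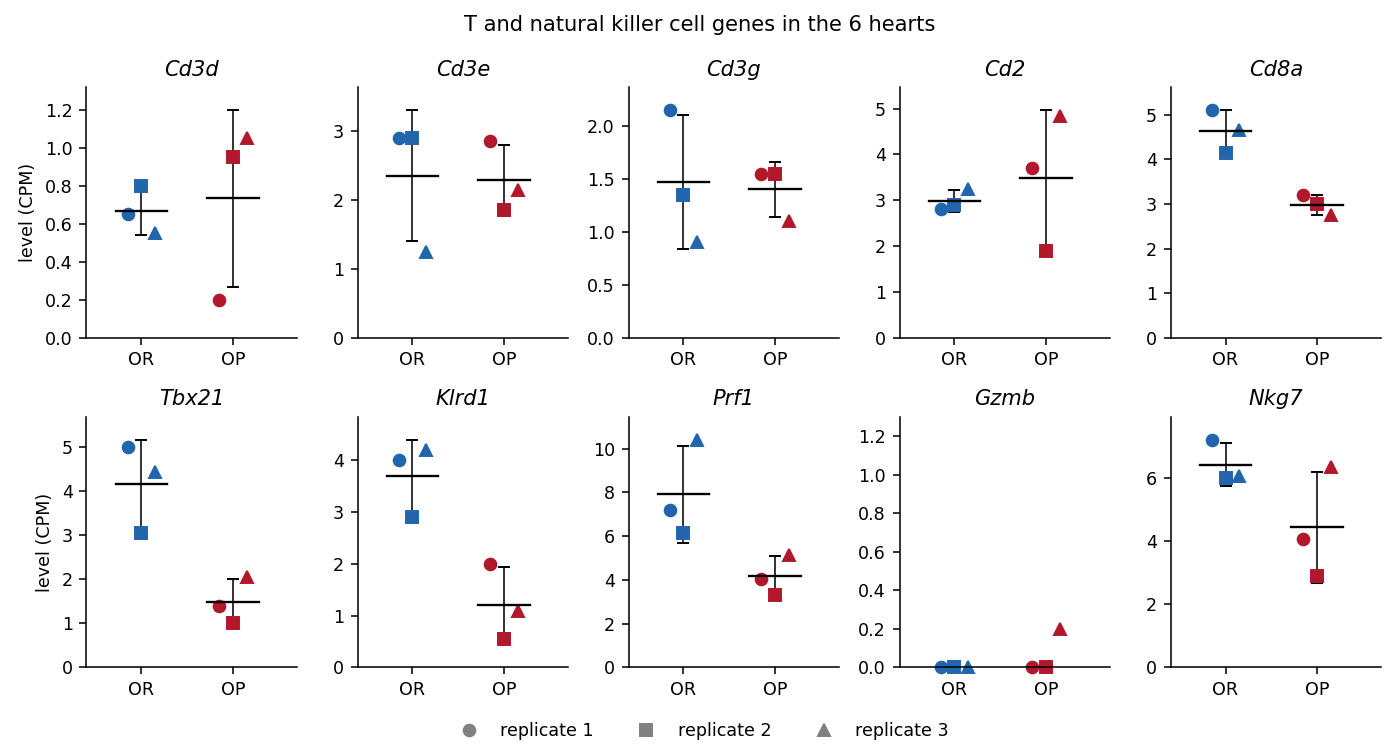
Level of each gene in CPM (y axis, own scale per panel) in the 3 OR and 3 OP hearts; symbols give the replicate, the wide bar the group mean and the thin bar 1 SD (omitted for Gzmb, listed at 0 in 5 hearts). The groups are apart for Cd8a, Tbx21, Klrd1 and Prf1, with every OP heart lower, and they overlap in the other 6 panels.

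Tbx21 (ENSRNOG00000009427) encodes a factor that drives interferon gamma and the cytotoxic programme in T and natural killer cells. Its level was 1.4, 1.0 and 2.05 CPM in OP replicates 1 to 3 and 5.0, 3.05 and 4.45 CPM in OR replicates 1 to 3. The highest OP heart thus lay below the lowest OR heart. The OP mean of 1.48 ± 0.53 CPM (SD, n = 3) was 35.6% of the OR mean of 4.17 ± 1.00 CPM (n = 3), from 53 reads in all OP hearts and 141 in all OR hearts. The log2 fold change was -1.35 with a 95% interval of -2.00 to -0.70, and the limma adjusted p was 0.0449. In bulk tissue fewer cells of a type and less RNA per cell cannot be told apart, and this holds for every value given here. Tbx21 also stands in a gene table that the study drew from these libraries, as do Klrd1, Ncr1 and Ulbp1 below, so their direction here is not separate evidence.

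Klrd1 (ENSRNOG00000060246) encodes CD94, the lectin that pairs with NKG2 chains into receptors for non-classical class I molecules. It stood at 2.0, 0.55 and 1.1 CPM in the OP hearts and at 4.0, 2.9 and 4.2 CPM in the OR hearts. The groups did not overlap, and OP replicate 2, with 6 reads, was far below OP replicate 1, with 23. The OP mean of 1.22 ± 0.73 CPM was 32.9% of the OR mean of 3.70 ± 0.70 CPM (SD, n = 3 each). The log2 fold change was -1.54 (95% interval -2.40 to -0.68), the largest in size of the 8 tested members, but its limma adjusted p of 0.067 did not pass. Its estimate rested on few reads, 43 in the OP hearts together against 125 in the OR hearts.

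Prf1 (ENSRNOG00000000562) encodes perforin, which opens pores in the membrane of the target cell. Its level was 4.05, 3.3 and 5.15 CPM in the OP and 7.2, 6.15 and 10.4 CPM in the OR hearts. The groups were apart, with OR replicate 3 well above the other OR hearts. This gave a log2 fold change of -0.84 (95% interval -1.37 to -0.30), with a limma adjusted p of 0.0935 that did not pass.

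Nkg7 (ENSRNOG00000017749) encodes a granule membrane protein needed for the release of cytotoxic granules. It was at 4.05, 2.9 and 6.35 CPM in the OP and 7.2, 6.0 and 6.05 CPM in the OR hearts. The overlap came from OP replicate 3 alone, which lay above both OR replicates 2 and 3. Its log2 fold change was -0.53 (95% interval -1.11 to 0.04, limma adjusted p = 0.254). Gzmb (ENSRNOG00000045973), for the protease granzyme B that induces apoptosis in target cells, was listed at 0 in 5 hearts and at 0.2 CPM (2 reads) in OP replicate 3. This is under 3 reads in every library, so no difference in Gzmb was detectable at this depth.

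Among the T cell surface genes the groups were apart for Cd8a and overlapped for the CD3 chains and Cd2. Cd8a (ENSRNOG00000007178), the alpha chain of the CD8 coreceptor, was at 3.2, 3.0 and 2.75 CPM in the OP and 5.1, 4.15 and 4.65 CPM in the OR hearts. Both groups were tight, with an OP mean of 2.98 ± 0.23 and an OR mean of 4.63 ± 0.48 CPM (SD, n = 3 each). The OP mean was 64.4% of the OR mean. The log2 fold change was -0.55 (95% interval -0.94 to -0.17), and the limma adjusted p of 0.114 did not pass.

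The CD3 chains are assembled with the T cell receptor at the surface of every T cell. Cd3e (ENSRNOG00000016069) was at 2.85, 1.85 and 2.15 CPM in the OP and 2.9, 2.9 and 1.25 CPM in the OR hearts. Cd3g (ENSRNOG00000015945) was at 1.55, 1.55 and 1.1 CPM in the OP and 2.15, 1.35 and 0.9 CPM in the OR hearts. In both genes the groups overlapped and OR replicate 3 was the lowest of all 6 hearts. The log2 fold changes were 0.07 (95% interval -0.68 to 0.82) for Cd3e and 0.04 (95% interval -0.70 to 0.77) for Cd3g, with limma adjusted p of 0.928 and 0.959. These intervals leave room for differences as large as that of Cd8a in either direction. Without OR replicate 3 the values were -0.29 and -0.22, and neither passed.

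Cd3d (ENSRNOG00000015994) was under the filter, at 0.2, 0.95 and 1.05 CPM in the OP and 0.65, 0.8 and 0.55 CPM in the OR hearts. The lowest and the highest heart were both OP, and an exact permutation test of the means gave p = 0.9 (two-sided, smallest possible 0.1). Cd2 (ENSRNOG00000015821) encodes an adhesion receptor of T and natural killer cells that binds CD48 in rodents. It was at 3.7, 1.9 and 4.85 CPM in the OP and 2.8, 2.9 and 3.25 CPM in the OR hearts. The OR hearts were close together and lay within the wide range of the OP hearts. For Cd2 the log2 fold change was 0.17 (95% interval -0.52 to 0.85, limma adjusted p = 0.778).

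**Figure D2:**
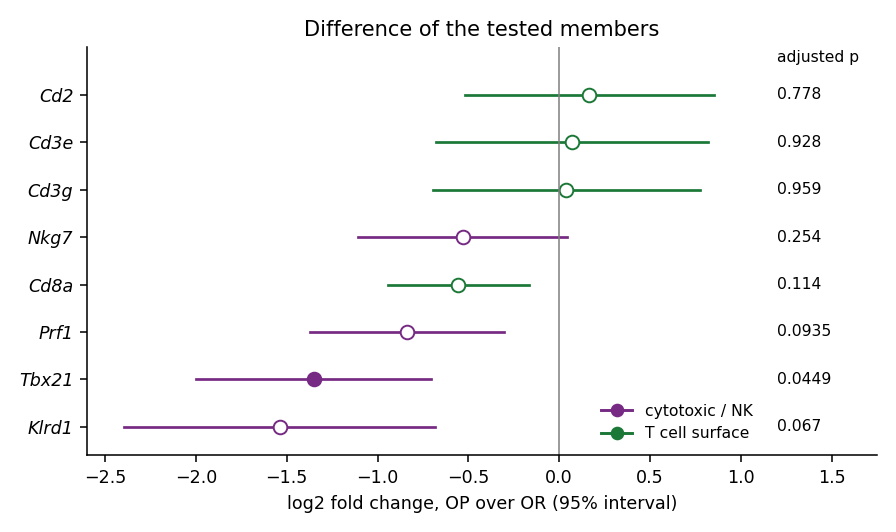
Log2 fold change of OP over OR (x axis) with its 95% interval for the 8 tested genes, ordered by size, with the limma adjusted p at the right; the filled point passed 0.05. The intervals of Tbx21, Klrd1, Prf1 and Cd8a lie below 0, and those of the other 4 genes include 0.

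The promoters of members whose levels did and did not separate the groups are shown because T-bet, the product of the one gene that passed, binds T-box sites. They were available for 9 of the 10 members, as 250 bases before to 50 after the RefSeq start on GRCr8, and 6 of them are printed 5′ to 3′ on the gene's strand. Capitals mark matches on either strand to AGGTGT for T-box factors, TGTGGT for RUNX factors, CAGGAA for ETS factors, TGANTCA for AP-1, TGACGT for the CRE and AGATAA for GATA factors, and 0 of these matches overlap.
Tbx21, chr10:82595204-82595503, minus strand: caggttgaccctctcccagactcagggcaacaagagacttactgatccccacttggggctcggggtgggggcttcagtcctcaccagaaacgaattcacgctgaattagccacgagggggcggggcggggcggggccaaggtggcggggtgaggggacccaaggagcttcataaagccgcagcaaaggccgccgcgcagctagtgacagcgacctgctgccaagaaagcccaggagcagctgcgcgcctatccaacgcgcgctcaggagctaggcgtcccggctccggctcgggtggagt
Prf1, chr20:29788790-29789089, plus strand: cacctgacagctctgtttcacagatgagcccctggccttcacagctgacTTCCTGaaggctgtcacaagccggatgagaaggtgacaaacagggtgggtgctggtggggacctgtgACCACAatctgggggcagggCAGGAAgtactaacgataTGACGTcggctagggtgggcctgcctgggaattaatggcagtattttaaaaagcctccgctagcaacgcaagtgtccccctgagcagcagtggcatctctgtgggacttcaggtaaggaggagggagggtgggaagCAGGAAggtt
Nkg7, chr1:102981247-102981546, plus strand: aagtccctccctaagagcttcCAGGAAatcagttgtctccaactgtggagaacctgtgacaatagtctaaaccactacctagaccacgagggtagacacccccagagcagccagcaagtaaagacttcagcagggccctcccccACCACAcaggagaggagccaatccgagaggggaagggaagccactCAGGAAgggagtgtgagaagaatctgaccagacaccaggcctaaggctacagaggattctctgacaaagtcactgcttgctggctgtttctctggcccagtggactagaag
Cd8a, chr4:104923866-104924165, plus strand: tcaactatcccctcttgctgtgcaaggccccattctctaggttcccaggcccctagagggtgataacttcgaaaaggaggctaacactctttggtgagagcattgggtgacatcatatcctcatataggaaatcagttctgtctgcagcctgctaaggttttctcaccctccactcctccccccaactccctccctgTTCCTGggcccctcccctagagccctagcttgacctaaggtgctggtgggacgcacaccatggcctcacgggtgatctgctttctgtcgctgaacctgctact
Cd3e, chr8:54211721-54212020, minus strand: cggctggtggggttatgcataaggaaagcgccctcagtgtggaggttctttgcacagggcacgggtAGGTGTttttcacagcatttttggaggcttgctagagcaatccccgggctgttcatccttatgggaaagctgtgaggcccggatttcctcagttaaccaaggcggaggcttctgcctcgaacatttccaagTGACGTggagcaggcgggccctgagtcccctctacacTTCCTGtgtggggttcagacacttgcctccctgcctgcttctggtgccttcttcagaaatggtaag
Cd3g, chr8:54183869-54184168, minus strand: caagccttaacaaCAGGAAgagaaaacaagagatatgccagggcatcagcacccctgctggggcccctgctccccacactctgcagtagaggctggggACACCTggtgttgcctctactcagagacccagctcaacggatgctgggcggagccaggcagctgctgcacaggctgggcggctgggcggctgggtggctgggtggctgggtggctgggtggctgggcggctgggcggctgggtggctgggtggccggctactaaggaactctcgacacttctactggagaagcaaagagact

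The T-box letters were present in 2 of the 9 member promoters, those of Cd3e and Cd3g, beside 13.7% of all 33469 promoters of the same length. In Cd3e it lay 184 bases before the start and in Cd3g 152 bases before it. The RUNX letters were in 4 of 9 (Cd2, Gzmb, Nkg7 and Prf1; 17.3% of all promoters). The ETS letters were in 5 of 9 (29.1%), with 3 matches in Prf1 and 2 in Nkg7. The CRE letters were in Cd3e, Gzmb and Prf1 (3 of 9, 7.94%), the AP-1 letters in Gzmb (1 of 9, 7.33%) and the GATA letters in 0 of 9 (11.6%). The Tbx21 window held none of the 6 motifs. A match is a string of letters and not a shown binding site, and an absent match says nothing of the factor.

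The sum of the cytotoxic genes kept the groups apart, and that of the T cell surface genes did not. Tbx21, Klrd1 and Prf1 each kept the groups apart, so the cytotoxic sum adds no separate result. The T cell surface sum includes Cd8a, whose groups were also apart. Tbx21, Klrd1, Prf1, Nkg7 and Gzmb together stood at 11.5, 7.75 and 14.9 CPM in the OP and 23.4, 18.1 and 25.1 CPM in the OR hearts. Every OP heart was below every OR heart in this sum, and the OP mean was 0.512 times the OR mean. Cd2, Cd3d, Cd3e, Cd3g and Cd8a together stood at 11.5, 9.25 and 11.9 CPM in the OP and 13.6, 12.1 and 10.6 CPM in the OR hearts, groups that overlapped. The sum of the CD3 chains alone was 4.6, 4.35 and 4.3 CPM in the OP and 5.7, 5.05 and 2.7 CPM in the OR hearts, with the OP hearts inside the OR range. The ratio of the cytotoxic to the T cell surface sum was 1.00, 0.838 and 1.25 in the OP and 1.72, 1.5 and 2.37 in the OR hearts. The ratio was thus lower in each OP heart than in any OR heart. It can be read between hearts only, because levels were not corrected for gene length, and it was given no test because the genes were chosen with results known. The median log2 fold change was -1.09 over the 4 tested cytotoxic genes and 0.05 over the 4 tested T cell surface genes, and the difference between these medians was not tested.

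**Figure D3:**
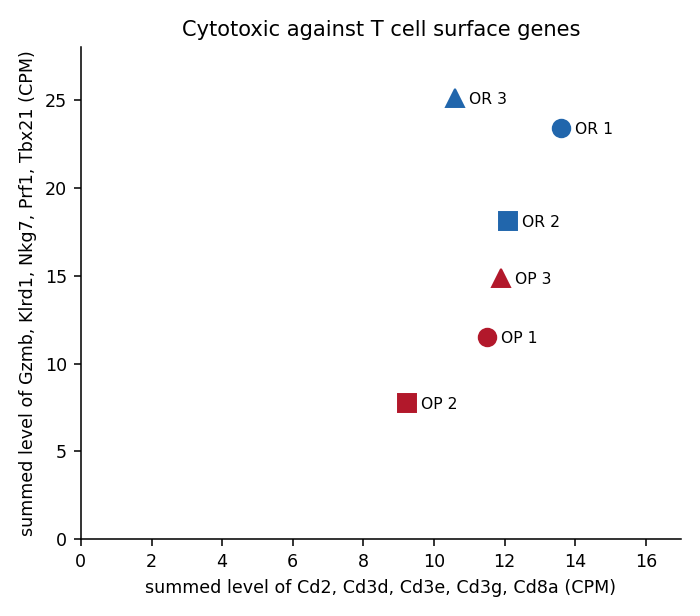
Summed level of the 5 cytotoxic genes (y axis, CPM) against that of the 5 T cell surface genes (x axis, CPM) in each heart, OP in red and OR in blue, with the replicate beside each point. The groups separate along the y axis, at 7.75 to 14.9 against 18.1 to 25.1 CPM, and overlap along the x axis.

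The call of Tbx21 depended on single hearts. Its limma adjusted p was 0.0468 without OP replicate 2 and 0.0428 without OP replicate 3. It was 0.101 without OP replicate 1, 0.154 without OR replicate 1, 0.0857 without OR replicate 2 and 0.189 without OR replicate 3, so that the call was lost in these 4 cases. Its log2 fold change stayed between -1.57 and -1.15 when 1 heart was left out, and between -1.44 and -1.03 under the other settings. Over all genes the number of calls fell from 456 to 58, 82 and 73 without OR replicates 1, 2 and 3. It fell to 176 and 259 without OP replicates 1 and 3, and rose to 773 without OP replicate 2. The call of Tbx21 was also lost with voom (adjusted p = 0.0542) and with no filter on low levels (adjusted p = 0.0599).

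Klrd1 passed in 1 setting, without OP replicate 1 (log2 fold change -1.92, limma adjusted p = 0.0436), where Tbx21 did not. Without OP replicate 2, which had its lowest level, the log2 fold change of Klrd1 was -1.17 (adjusted p = 0.0555). Prf1 and Cd8a passed in no setting, with log2 fold changes of -0.71 and -0.58 without OP replicate 2. Nkg7 moved most with OP replicates 2 and 3, to -0.30 without the former and -0.80 without the latter, and passed in neither.

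**Figure D4:**
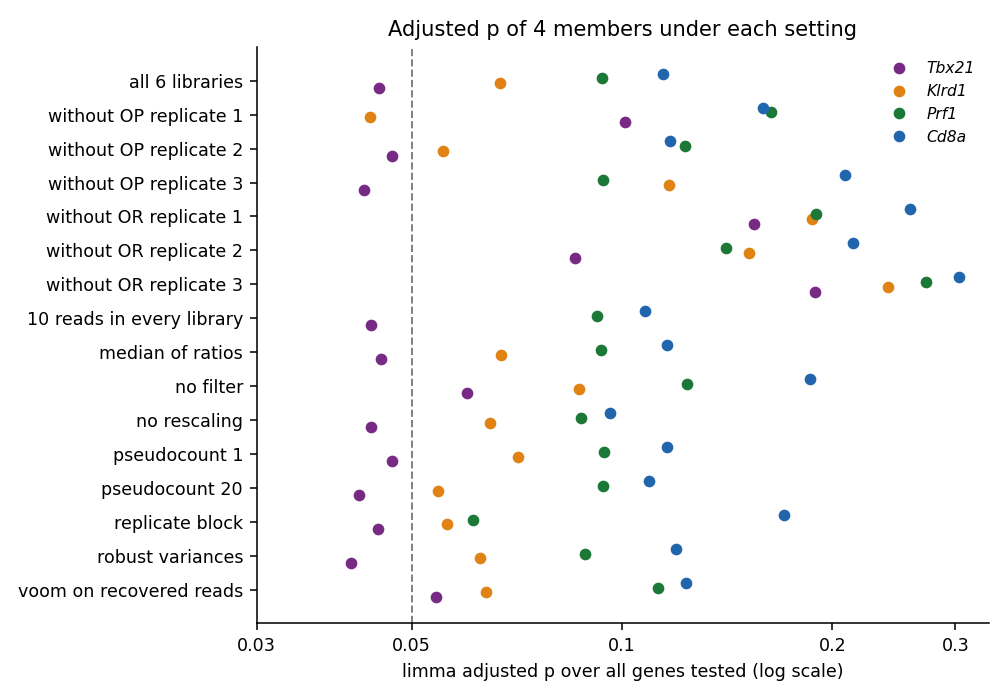
Limma adjusted p (x axis, log scale) of Tbx21, Klrd1, Prf1 and Cd8a with all 6 libraries, without each heart in turn and under the other processing settings; the dashed line marks 0.05. Tbx21 lies on both sides of the line, Klrd1 is left of it without OP replicate 1 only, and Prf1 and Cd8a stay to the right.

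Genes that work with the 10 members were described from 6 lists of lymphocyte genes, with 79 tested of 117 found. One was higher and 3 were lower in OP hearts, 5.06% of those tested beside 3.39% of all genes, and 23 (29.1%) had every OP heart below every OR heart beside 17.7%. The 4 calls were Ccl21, Lcp2, Itgae and Ulbp1, and voom also called 4. The median log2 fold change over the 79 was -0.20.

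The list nearest to Klrd1 was that of natural killer receptors and adaptors, of which 0 of 12 tested passed limma's or voom's adjusted p. Of the 12, 6 had an unadjusted p under 0.05 with lower values in OP hearts, beside 11.9% of all genes tested. In 6 every OP heart lay below every OR heart, beside 17.7% of all genes. The median log2 fold change was -0.57, with 10 negative and 2 positive values. The filter on low levels could be met by the OR hearts alone, which limits what these counts show. The genes named next are those with the smallest p and 1 chosen later, and all are lower in OP hearts. Ncr1, for the activating receptor NKp46, was at 1.55, 0.95 and 1.05 CPM in the OP and 2.5, 2.45 and 4.55 CPM in the OR hearts (log2 fold change -1.21, limma adjusted p = 0.0698). Klrc2, for an NKG2 chain that pairs with CD94, was at 1.3, 0.85 and 1.8 CPM in the OP and 2.8, 2.4 and 2.8 CPM in the OR hearts (-0.92, limma adjusted p = 0.0993). As for Klrd1 itself, the groups of both genes did not overlap. Klrb1c, of the NKR-P1 lectin family, needed its OR hearts to meet the filter. Its level was 0.7, 0.2 and 1.1 CPM in the OP and 1.85, 1.8 and 1.5 CPM in the OR hearts. It had a log2 fold change of -1.27 (limma adjusted p = 0.133). Hcst, the adaptor DAP10 of the receptor NKG2D, had one of -0.90 (limma adjusted p = 0.0914) and passed without OP replicate 2 (adjusted p = 0.0425). Klrk1, for NKG2D itself and chosen after its values were seen, was at 2.95, 1.45 and 3.15 CPM in the OP and 4.75, 3.75 and 4.3 CPM in the OR hearts (-0.74, limma adjusted p = 0.168).

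The calls included 2 genes of the tissue side. Ulbp1, for a surface molecule that NKG2D binds in humans, was at 6.8, 8.25 and 5.5 CPM in the OP and 13.6 to 16 CPM in the OR hearts. Its log2 fold change was -1.06 (limma adjusted p = 0.022), and its groups were far apart. The call was lost without OP replicate 1 (adjusted p = 0.0648) and without OR replicates 1, 2 or 3 (0.104, 0.0801 and 0.116). Ccl21, a chemokine of lymphatic vessels that draws T cells bearing CCR7, was at 78.4, 80.4 and 75.8 CPM in the OP and 56.6, 41.0 and 33.1 CPM in the OR hearts. It was the single lymphocyte gene called higher in OP hearts (0.92, limma adjusted p = 0.0316), and lost its call without OP replicates 1 or 3 (adjusted p = 0.0824 and 0.0606) and without OR replicates 2 or 3 (0.121 and 0.107). Cxcl11, a ligand of CXCR3 that overlaps Art3, had a log2 fold change of -0.77 (limma adjusted p = 0.0858), and Cd48, the ligand of Cd2, one of 0.28 (limma adjusted p = 0.145). Of the 14 tested tissue ligands 1 was called higher (1.49% of all genes) and 1 lower (1.9% of all genes). Of their log2 fold changes 7 were positive and 7 negative. At an unadjusted p under 0.05 there were 5 with higher values (10.4% of all genes) and 3 with lower values (11.9% of all genes).

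T cell receptor signalling held 1 call among 15 tested genes, beside 3.39% of all genes. Its median log2 fold change was -0.42, with 11 negative and 4 positive values. An unadjusted p under 0.05 was found for 4 of the 15, all with lower values in OP hearts, beside 11.9% of all genes tested. Lcp2, for the adaptor SLP-76 that T cells, natural killer cells and other blood cells use, was at 7.65, 6.65 and 7.1 CPM in the OP and 14.9, 12.0 and 15.1 CPM in the OR hearts. The OP hearts were close together and well under the OR hearts, with a log2 fold change of -0.90 (limma adjusted p = 0.0163). Its adjusted p was 0.0875 without OR replicate 1 and 0.0952 without OR replicate 3, so the call was lost in both cases. The gene overlaps the uncharacterised LOC134480773. Zap70, the kinase recruited to phosphorylated CD3 chains, had a log2 fold change of -0.79 (limma adjusted p = 0.0737), and Lat, the membrane scaffold it phosphorylates, one of -1.15 (adjusted p = 0.0955). In both genes every OP heart lay below every OR heart, as in 5 of the 15, beside 17.7% of all genes tested. Cd28, the costimulatory receptor, had a log2 fold change of -0.94 (limma adjusted p = 0.2). Lck, the kinase bound to CD8 and CD4, was near 0 at -0.05, and Cd247, the zeta chain that T and natural killer cells share, was at -0.43 (adjusted p = 0.909 and 0.413); both were chosen with their values in view. Cd8b, for the partner chain of Cd8a, was likewise chosen with its values in view and had a positive log2 fold change of 0.61 (95% interval -0.51 to 1.74, limma adjusted p = 0.494), with groups that overlapped at 0.65 to 1.4 CPM in OP and 0.35 to 1.55 CPM in OR hearts. It overlaps LOC134486799.

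Cytotoxic granule and effector genes had a median log2 fold change of -0.06 and 0 calls among 11 tested by limma or voom. The list was not confined to the granule in which perforin is stored. Ctsw, cathepsin W of cytotoxic lymphocytes, was at 4.65, 3.3 and 4.45 CPM in the OP and 6.3, 6.6 and 5.7 CPM in the OR hearts (-0.53, limma adjusted p = 0.122). Gzmk, a granzyme of effector and memory T cells, had a log2 fold change of -0.51 (limma adjusted p = 0.252), and Unc13d, which primes granules for release, one of -0.30 (adjusted p = 0.254). Srgn, the granule proteoglycan that many other cells also make, had the opposite sign at 0.37 (limma adjusted p = 0.0665). Of the 11, 1 gene had an unadjusted p under 0.05 in each direction, beside 10.4% higher and 11.9% lower of all genes tested.

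Transcription factors had a median log2 fold change of -0.01, with 0 of 12 called by limma or voom and 2 at an unadjusted p under 0.05 with lower values in OP, beside 11.9% of all genes tested. Those 2 were Ikzf1, the lymphoid factor Ikaros (-0.58, limma adjusted p = 0.18), and Hopx, which cardiomyocytes also express (-0.49, adjusted p = 0.115). Ikzf3, the related factor Aiolos, had a log2 fold change of -0.74 and Foxp3, the factor of regulatory T cells that overlaps Ccdc22 and Ppp1r3f, one of -0.24 (limma adjusted p = 0.251 and 0.403). Eomes, the T-box relative of Tbx21 and chosen after its values were seen, was under the filter at 0.35, 0.2 and 0.35 CPM in the OP and 1.05, 0.55 and 0.65 CPM in the OR hearts. Its groups did not overlap, at levels of a few reads.

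Among 15 tested receptors for cytokines and homing 1 was called, beside 3.39% of all genes tested. Itgae, the integrin CD103 that holds lymphocytes in epithelium and overlaps Haspin, was at 5.5, 6.8 and 7.1 CPM in the OP and 10.2, 11.8 and 11.9 CPM in the OR hearts (log2 fold change -0.74, limma adjusted p = 0.0427). The call was lost without any 1 heart other than OP replicate 2, at adjusted p of 0.0963 and 0.07 without OP replicates 1 and 3, and 0.102, 0.154 and 0.179 without OR replicates 1, 2 and 3. It was also lost with no filter on low levels (adjusted p = 0.0558) and with a block on replicate number (0.055). Ccl5, a chemokine that cytotoxic lymphocytes release, had a log2 fold change of -0.46 (limma adjusted p = 0.124). Itgal, the alpha chain of LFA-1, had one of -0.53 (limma adjusted p = 0.127) and Il12rb2, an interleukin 12 receptor chain whose gene Tbx21 supports in T cells, one of -0.71 (adjusted p = 0.162). In these 3 genes and in Itgae every OP heart lay below every OR heart. That is 4 of the 15, beside 17.7% of all genes tested.

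**Figure D5:**
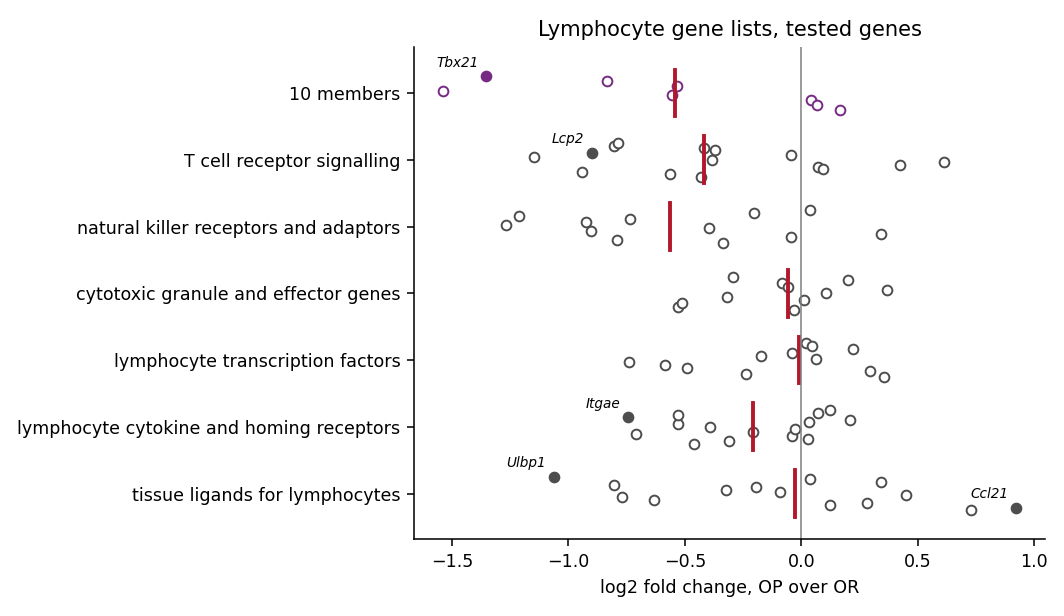
Log2 fold change of OP over OR (x axis) of each tested gene in the 10 members and in 6 lists of lymphocyte genes (y axis); filled points passed a limma adjusted p of 0.05 and the red bar is the median of the list. The medians run from -0.57 for natural killer receptors to -0.01 for transcription factors, with -0.54 for the members.

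Markers of other blood cells differed between the groups for some lists. Of all genes tested 3.39% were called, and at an unadjusted p under 0.05 10.4% were higher and 11.9% lower in OP hearts. Ptprc, for CD45 of all white blood cells, was lower in OP hearts at 11.7, 11.4 and 14.2 CPM, against 18.2 to 20.8 CPM in OR hearts (log2 fold change -0.61, limma adjusted p = 0.0374). Its call was lost without OP replicate 1 (adjusted p = 0.0963) and without OR replicates 1, 2 or 3 (0.131, 0.0963 and 0.168). It was 1 of 8 tested pan-leukocyte markers called, and their sum was 150 to 187 CPM in OP and 165 to 191 CPM in OR hearts. Of the 8, 5 had negative and 3 had positive log2 fold changes. At an unadjusted p under 0.05 the list held Ptprc with lower and Arhgdib with higher values in OP hearts. For Arhgdib the log2 fold change was 0.21 (limma adjusted p = 0.199). Of 12 macrophage markers 0 passed by limma or voom (2 higher at an unadjusted p under 0.05), with sums of 266 to 384 CPM in OP and 225 to 314 CPM in OR hearts. Of 8 granulocyte markers 3 were tested and 0 called by limma or voom, with 2 higher at an unadjusted p under 0.05. Those 2 were S100a9 and S100a8 (log2 fold changes 1.49 and 1.28, limma adjusted p = 0.0572 and 0.0598). S100a9 was at 3.2, 6.7 and 4.45 CPM in the OP and 2.4, 1.35 and 1.15 CPM in the OR hearts. Mpo and Elane were at most 0.1 and 0.3 CPM in any heart. The list summed to 8.4 to 11.9 CPM in OP and 3.65 to 5.25 CPM in OR hearts. These groups did not overlap, in the opposite direction to Tbx21. Of 7 tested mast cell markers the tryptases Tpsb2 and Tpsab1 were higher in OP hearts (log2 fold changes 1.96 and 1.6, limma adjusted p = 0.0115 and 0.0123), with sums of 51.5 to 78.5 CPM in OP and 56.7 to 67.5 CPM in OR hearts. At an unadjusted p under 0.05 the list held 4 genes with higher and 1 with lower values in OP hearts. The latter was Kit, the receptor of stem cell factor, at 10.9 to 18.1 CPM in OP and 21.2 to 22.7 CPM in OR hearts (log2 fold change -0.53, limma adjusted p = 0.113, chosen with its values in view). Tpsb2 lost its call without OR replicates 1 or 3 (adjusted p = 0.052 and 0.0598) and Tpsab1 without OR replicates 2 or 3 (0.0533 and 0.0744).

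Of 12 B cell markers 3 were tested and 0 called by limma or voom (0 at an unadjusted p under 0.05), with sums of 21.9 ± 7.1 CPM in OP and 15.2 ± 7.75 CPM in OR hearts (SD, n = 3 each), which overlapped. Ms4a1, the B cell antigen CD20 and a defining marker of the list, was at most 0.1 CPM in any heart. Of 8 dendritic cell markers 4 were tested and 0 called by limma or voom, with sums of 23.9 to 34.4 and 31.0 to 37.2 CPM. The 1 lower at an unadjusted p under 0.05 was Itgax (log2 fold change -0.65, limma adjusted p = 0.0831). It was at 5.25 to 8.05 CPM in OP and 9.35 to 11.75 CPM in OR hearts. Siglech, the defining marker of the plasmacytoid subset alone, was at 0 in all 6 hearts. Red cell markers summed to 2185 to 2996 CPM in OP and 1832 to 2643 CPM in OR hearts and platelet markers to 14.4 to 23.1 and 17.9 to 22.2 CPM, with 0 called by limma or voom in either list and 0 at an unadjusted p under 0.05. The part of white blood cell numbers, or of blood left in the tissue, in the lower Tbx21 level was not tested.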

How the data were processed

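Myocardial RNA of 3 OP rats on the high-fat diet and 3 OR rats on standard chow was compared, with 1 library per rat and groups as labelled. According to the labels and methods, TruSeq libraries were trimmed with Trimmomatic, mapped to Rnor 6.0 with STAR and summed per gene with HTSeq on the Ensembl annotation. The deposited value is a score per gene: the authors scaled reads to 20000000 per library and rounded up, so very low levels are overstated and the values are not raw counts. The strand that HTSeq counted was not given in the sources used here. Genes that overlap on opposite strands therefore cannot be told apart.

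To recover the reads per library, candidate totals were first narrowed by which low values occurred. The total kept had the largest share of values equal to whole reads, scaled and rounded up, beyond the share that any total gives. At that total 99.75% to 99.88% of values were exactly whole. After division by TMM factors computed on the recovered reads, log2(value + 4), where 4 is 0.2 CPM, entered limma 3.58.1 (R 4.3.3). Group was the one factor, with a mean-variance trend. Log2 fold changes are on this scale, which understates changes at low levels. A gene was tested if 3 or more libraries reached 1 CPM, p-values were adjusted by Benjamini-Hochberg over all 13445, and 0.05 was the threshold. The hearts of 1 group could meet this filter alone, so a gene could enter through the group where it was high. Members under the filter had an exact permutation test in Python 3.11.15 (SciPy 1.17.1), and other genes under it were not tested. The fit was tested on simulated data. Alternatives were other scalings (median of ratios, none), no filter or 10 reads in every library, pseudocounts of 1 and 20, voom, robust variances, a block on replicate number, and each library left out.

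The 10 members, the 6 lymphocyte lists and the 9 marker lists were chosen with earlier results of these data known. The text names all members, up to 4 tested genes of a list with the smallest p, every called lymphocyte gene, defining markers at or near 0, and others marked as chosen with their values in view or after they were seen. Promoters were matched by symbol in RefSeq (GRCr8). Overlapping genes were taken from RefSeq positions on either strand, while reads were counted on the Ensembl annotation of Rnor 6.0. Whether an overlapping gene shared reads in that counting was not tested.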

Additional observations from a re-analysis of the deposited data

How the results depend on the processing

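Over all genes, 456 calls became 267 with the replicate block, and 58 to 773 without 1 replicate. With no rescaling 33.1% of 465 calls were higher, against 44.1%. The 1 call among the members became 0 with no filter and 0 with voom, and 0 to 1 without 1 replicate. The 4 lymphocyte calls became 0 to 5 without 1 replicate. The log2 fold change of Cd3g turned to -0.0031 with no rescaling and ranged from -0.22 to 0.31 without 1 replicate, that of Cd3e from -0.29 to 0.25, that of Cd2 from -0.091 to 0.50 and that of Lck from -0.17 to 0.0831. The other named genes kept their sign in every setting run. Same-numbered OP and OR rats deviated together with correlations of 0.059, 0.075 and 0.127, beside -0.17 to 0.079 for unlike numbers. Of the same-numbered values only 0.127 lay above that range. They were not all above 0.1, so the numbers were not taken as pairs. Under the replicate block Tbx21 had an adjusted p of 0.0448, and Ptprc, like Itgae, lost its call (limma adjusted p = 0.0642). With 2 to 119 reads per library for the members that had reads, small differences were beyond this depth. Klrd1 could not be fitted with 10 reads in every library.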
